A study of Mus musculus with 45 samples.

Results

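The 10 genes Dlx5, Dlx6, Emx2, Pax2, Pax8, Sox17, Msx1, Msx2, Osr1 and Osr2 encode transcription factors known from the Mullerian duct and the epithelium that descends from it. They were found by symbol in the deposited count table, and all 10 were present among its 24422 genes. The samples came from sexually mature CD-1 female mice, an outbred stock, that were either wildtype (WT) or knockouts for the zinc finger gene Plag1 (Plag1KO, or KO), bred in a colony kept by crossing heterozygotes. Every animal of both genotypes had been superovulated, with 5 IU of pregnant mare serum and then 5 IU of human chorionic gonadotropin, and was killed on the day after the second injection. Each mouse gave 3 tissues, namely whole uterine horn, here called uterus, the scraped lining, or endometrium, and the wall left behind, or myometrium, so that 14 mice (7 per genotype) formed 6 groups of 7 mice. The study's methods for superovulation give the age of the females as 1 to 3 months. The question asked of these tissues was whether the maternal tract differed between the genotypes.

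The Mullerian (paramesonephric) ducts are the epithelial tubes from which the oviducts, uterus and upper vagina form in female embryos. Pax2, Pax8, Emx2 and Osr1 act early in the urogenital ridge, where loss of Pax2 or Emx2 leaves mice without a female tract. Msx1, Msx2, Dlx5, Dlx6 and Sox17 are known from the later organ, where they act in the readiness of the uterus for the embryo and in the formation of its glands. Osr2, a relative of Osr1, is a zinc finger gene of mesenchyme. Pax8 and Sox17 are in common use as markers of Mullerian epithelium.

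STRT, the library protocol used, tags the 5′ end of each transcript once, so the reads mark where transcripts start. RefSeq start windows, from 250 bases before to 50 bases after the start on GRCm38.p6, were on hand for 5 of the 10 genes (Emx2, Pax2, Pax8, Msx1 and Msx2). The windows of Pax8, Msx1 and Msx2, genes that were higher in endometrium than in myometrium, are shown with that of Emx2. The Emx2 difference pointed the other way over all mice, in a call that was lost under several settings given below. Capitals mark every match, on either strand, to CCAAT, to GGGCGG and to the homeodomain core TAATTA.
Pax8, chr2:24475550-24475849, minus strand: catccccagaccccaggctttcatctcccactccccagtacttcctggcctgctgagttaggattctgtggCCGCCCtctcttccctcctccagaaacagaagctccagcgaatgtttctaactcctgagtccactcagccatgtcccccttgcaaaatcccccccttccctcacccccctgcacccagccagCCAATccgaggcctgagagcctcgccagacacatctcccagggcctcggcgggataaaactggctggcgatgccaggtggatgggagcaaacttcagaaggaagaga
Msx1, chr5:37824536-37824835, minus strand: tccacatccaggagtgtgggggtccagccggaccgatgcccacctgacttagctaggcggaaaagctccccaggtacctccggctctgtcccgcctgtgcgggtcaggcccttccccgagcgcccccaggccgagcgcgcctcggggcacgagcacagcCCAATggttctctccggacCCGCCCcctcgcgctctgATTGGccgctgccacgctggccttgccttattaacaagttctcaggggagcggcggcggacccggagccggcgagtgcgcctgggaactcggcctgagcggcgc
Msx2, chr13:53472731-53473030, minus strand: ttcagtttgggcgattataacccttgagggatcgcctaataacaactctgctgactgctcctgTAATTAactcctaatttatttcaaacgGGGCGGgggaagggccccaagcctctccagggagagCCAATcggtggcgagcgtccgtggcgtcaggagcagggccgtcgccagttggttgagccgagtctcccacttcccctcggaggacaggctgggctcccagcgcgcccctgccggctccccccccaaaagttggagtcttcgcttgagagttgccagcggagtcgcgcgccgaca
Emx2, chr19:59458440-59458739, plus strand: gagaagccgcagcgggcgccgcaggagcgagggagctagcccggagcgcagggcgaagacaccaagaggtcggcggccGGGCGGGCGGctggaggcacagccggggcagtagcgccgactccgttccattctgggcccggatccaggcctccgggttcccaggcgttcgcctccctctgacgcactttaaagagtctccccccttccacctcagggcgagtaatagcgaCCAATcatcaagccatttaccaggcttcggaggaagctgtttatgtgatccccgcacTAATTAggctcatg

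All 4 windows held GGGCGG, which was in 35.7% of 32851 windows of this length, and all 4 held CCAAT, which was in 37.4%. The 2 copies of GGGCGG in the Emx2 window overlap each other. TAATTA was in the windows of Emx2 and Msx2 and in 5.29% of all windows. The letters TATAAA (13.6% of all windows), AACAAT, a SOX core (10.7%), and AGGTCA, a nuclear receptor half-site (16.3%), were not in these windows. The 3 windows of Pax2 held GGGCGG in 2 cases and no other searched motif. The share of G and C was 64.3% for Emx2, 59.3% for Pax8, 70.0% for Msx1 and 61.0% for Msx2.

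Libraries held 264095 to 1232992 counts, and levels are given as CPM, gene counts scaled to a common library total, with no length term because a molecule is counted once. A floor of 3 counts was 2.45 to 11.7 CPM depending on the library, and it covers counting error only. Plag1 itself had at most 1 count in any library, with 2 counts in total in WT and 5 in KO, so these data cannot check the genotype labels. Tissue labels were checked on marker lists: the summed level of 7 smooth muscle genes was 16380 to 40224 CPM in WT myometrium and 21513 to 35753 CPM in KO myometrium, against medians of 2245 CPM in WT endometrium and 790 CPM in KO endometrium. The endometrium of WT mouse 3 (13690 CPM) and of KO mouse 13 (13170 CPM) carried the most smooth muscle RNA of the scrapings. A list of 7 stroma genes summed to medians of 2519 CPM in WT endometrium and 2212 CPM in KO endometrium. In myometrium its medians were 7175 CPM in WT and 10947 CPM in KO. The layers did not overlap on this list in either genotype, and which cells of the wall carried these genes was not tested. The summed level of 8 epithelial genes reached 1282 CPM in the myometrium of WT mouse 5, where the median of that group was 270.2 CPM. In the endometrium of WT mouse 8, a list of 6 oviduct and ciliated cell genes summed to 6720 CPM against a group median of 73.2 CPM. Scaling to spike-in RNA, in place of TMM factors, moved the median log2 difference of all genes between layers from 0.03 to 0.39 in all mice and from 0.08 to 0.58 in KO, and the share of calls that were higher in endometrium rose from 2130 of 4029 to 3407 of 4367 in all mice, from 901 of 1746 to 953 of 1417 in WT and from 1378 of 2508 to 2630 of 3049 in KO. The share of calls that were higher in whole uterus went from 760 of 1262 to 785 of 866 against endometrium, and from 2234 of 3952 to 5184 of 5586 against myometrium. Differences between tissues are therefore relative to the typical gene.

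The question of where in the wall these genes are expressed was addressed by comparing endometrium with myometrium. In WT mice, 7 of the 10 genes were higher in endometrium by 3.65-fold to 8.05-fold (Dlx5, Dlx6, Pax2, Pax8, Sox17, Msx1 and Msx2), where 6.81% of the 13227 genes tested were called higher and 6.39% lower (edgeR quasi-likelihood test, adjusted p under 0.05). In KO mice, 6 of the 10 were higher by 3.45-fold to 12.9-fold, all of them genes called in WT, where 10.6% of genes were called higher and 8.71% lower. Over all mice 7 were higher and Emx2 was lower, beside 14.9% of genes called higher and 13.3% called lower. The median log2 difference of the 10 genes was 2.11 in all mice, against 0.03 over all 14314 genes tested. All 10 genes passed the filter on low counts in every comparison. In bulk tissue, fewer cells that express a gene and less RNA per cell cannot be told apart.

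**Figure D1:**
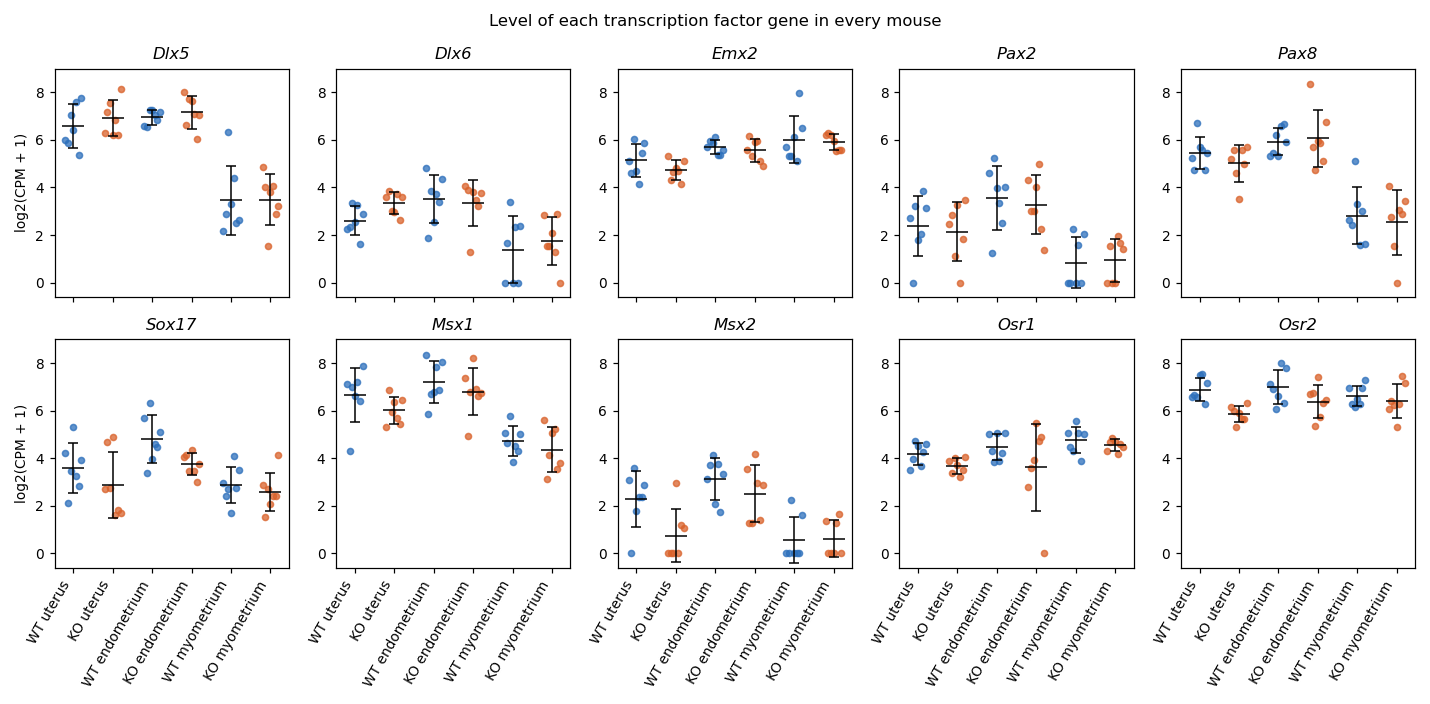
Level of each gene as log2(CPM + 1) on the y axis for the 6 groups on the x axis; each point is 1 mouse (blue WT, orange KO), the black bar is the mean and the whiskers are the SD over 7 mice. The means of Dlx5, Pax8 and Msx1 are lower in myometrium than in the other tissues, though some whole uterus points lie within the myometrium range. Each Osr2 group overlaps the others, and the highest Emx2 point is the myometrium of WT mouse 10 at 250.4 CPM.

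Dlx5 and Dlx6 are neighbouring homeobox genes on chromosome 6 (Dlx5 at 6827805 to 6832085 on the minus strand, Dlx6 at 6813334 to 6818568 on the plus strand, NCBIM37), with 9237 bases between them. Dlx5 in WT endometrium ranged from 91.2 to 151 CPM with a median of 129.9, and in WT myometrium from 3.45 to 78.8 CPM with a median of 6.46. In KO endometrium it ranged from 65.0 to 257 CPM with a median of 133, and in KO myometrium from 1.87 to 28.2 CPM with a median of 12.9. The ranges of the layers did not overlap in either genotype, and endometrium was above myometrium in 14 of 14 mice. The log2 difference in WT was 2.67 ± 0.49 (SE) and that in KO was 3.56 ± 0.38 (7 mice per genotype, edgeR adjusted p = 0.000385 and 1.19e-06). The high WT value of 78.8 CPM was that of mouse 5, the library with the most epithelial RNA in its group. Without that library the WT difference was 3.90, and with the mouse as a block it was 3.30.

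Dlx6 was expressed at a lower level than Dlx5 in each group. Its medians were 12.4 CPM in WT endometrium (range 2.68 to 27.3) and 12.7 CPM in KO endometrium (range 1.43 to 15.8). In myometrium they were 2.16 CPM in WT (0 to 9.39) and 1.91 CPM in KO (0 to 6.41). The layers overlapped, and 11 of the 14 myometrium samples held 3 counts or fewer. The difference was called in WT (log2 1.90 ± 0.64, n = 7, edgeR adjusted p = 0.047) and in KO (1.79 ± 0.54, n = 7, adjusted p = 0.0217). The WT call was lost when any of 5 mice was left out (1, 7, 8, 10 and 12, with log2 values of 1.55 to 2.00), and the KO call when mouse 4, 11 or 14 was left out. The WT call was also lost with 1 library per mouse (adjusted p = 0.0597), with the position letters as a covariate (0.0556), and without the endometrium of mouse 8 (0.0557) or the myometrium of mouse 10 (0.0962) alone. Over all mice (1.83 ± 0.43, adjusted p = 0.000984) it was kept in 14 of 14 such fits. Dlx6 overlaps the minus-strand transcript Dlx6os1, which held between 0 and 3 counts per group, and the use of strand in counting was not stated.

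Pax8 and Pax2 encode paired box factors that act in part together in duct and kidney formation. Pax8 (chromosome 2, 24276071 to 24331119, minus strand, NCBIM37) ranged from 39.0 to 100.4 CPM in WT endometrium with a median of 59.2, and from 2.00 to 33.8 CPM in WT myometrium with a median of 5.18. In KO it ranged from 25.7 to 330.1 CPM in endometrium with a median of 57.4, and from 0 to 15.7 CPM in myometrium with a median of 6.41. Of the 14 myometrium samples, 8 held 3 Pax8 counts or fewer. Again the layers did not overlap in either genotype, and the single highest value, 330.1 CPM from 335 counts, was the endometrium of KO mouse 2. That library also had the highest summed level of the 6 gland genes among KO endometrium samples (16167 CPM against a median of 4735). Of these genes, Prss28 (780 CPM) and Prss29 (6136 CPM) were above all other KO endometrium samples. Cxcl15, Ltf and Lcn2 lay within the range of the others, as did Foxa2 (0.985 CPM, others 0.411 to 6.754). The part of this list in the Pax8 level of mouse 2 was not tested. Between layers the log2 difference in WT was 2.73 ± 0.46 and that in KO 3.69 ± 0.56 (7 mice per genotype, edgeR adjusted p = 0.000172 and 5.06e-05). Without the endometrium of mouse 2, a choice made after its value was seen, the KO difference was 2.88 with an adjusted p of 6.97e-05, and without the myometrium of mouse 5 the WT difference was 3.60.

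Pax2 (chromosome 19, 44830539 to 44912758, plus strand) was scarce. Its median was 14.6 CPM in WT endometrium (1.34 to 36.7) and 7.13 CPM in KO endometrium (1.59 to 30.4). Its highest value in any myometrium was 3.75 CPM in WT and 2.89 CPM in KO, and all 14 myometrium samples were at or under 3 counts. On the log2 scale the difference in WT was 3.01 ± 0.70 and that in KO 2.90 ± 0.68 (7 mice per genotype, edgeR adjusted p = 0.00398 and 0.00347). With a single library kept for WT mouse 12 the WT value was 3.67. Endometrium was above myometrium in 7 of 7 WT mice and 6 of 7 KO mice.

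Msx1 and Msx2 are homeobox genes that act together in the uterus before implantation. Msx1 (chromosome 5, 38211724 to 38215822, minus strand) ranged from 57.7 to 324 CPM in WT endometrium with a median of 115, and from 13.3 to 54.4 CPM in WT myometrium with a median of 23.7. In KO it ranged from 29.3 to 294 CPM in endometrium with a median of 109.8, and from 7.63 to 48.6 CPM in myometrium with a median of 16.8. The layers were apart in WT and overlapped in KO, while each of the 14 mice had more in its endometrium. The log2 difference in WT was 2.44 ± 0.36 and that in KO 2.38 ± 0.40 (7 mice per genotype, edgeR adjusted p = 3.66e-05 and 0.000135), values that differed by 0.05 with a standard error of 0.57 in the test of the difference.

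Msx2 (chromosome 13, 53562250 to 53568443, minus strand) was the scarcest of the 10. Its median was 9.01 CPM in WT endometrium (2.36 to 16.7) and 6.36 CPM in KO endometrium (1.40 to 17.4). In myometrium it was at 0 in 5 of 7 WT mice and 4 of 7 KO mice. The layers of KO mice rested on 33 counts against 3, a ratio of 6.34 with a 95% exact interval for counting error of 1.99 to 32.3. The WT difference was 2.89 ± 0.71 on the log2 scale (n = 7, edgeR adjusted p = 0.00654), or 3.58 without the myometrium of mouse 5, and that in KO had an adjusted p of 0.0203, which was lost when mouse 2, 9 or 14 was left out. Without the endometrium of mouse 2 alone, the KO calls of Msx2 and Dlx6 had adjusted p values of 0.0553 and 0.0561.

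Sox17 (chromosome 1, 4481009 to 4486494, minus strand) encodes an SRY-related factor of the uterine epithelium that is also expressed in blood vessels. Its level in WT endometrium ranged from 9.39 to 80.0 CPM with a median of 23.2, and in WT myometrium from 2.21 to 16.0 CPM with a median of 5.82. In KO it ranged from 6.99 to 19.6 CPM in endometrium with a median of 12.7, and from 1.91 to 16.4 CPM in myometrium with a median of 4.34. The layers overlapped in both genotypes, and 8 of the 14 myometrium samples held 3 counts or fewer. The WT difference of 1.87 ± 0.44 passed the test (n = 7, edgeR adjusted p = 0.00409). The KO value of 0.97 ± 0.44 did not (adjusted p = 0.125), although it passed without mouse 14 (1.45, adjusted p = 0.032) and with spike-in scaling (1.45, adjusted p = 0.0272). The test of the difference between the genotypes gave -0.90 ± 0.64 (KO minus WT, adjusted p = 0.993). A list of 4 endothelial genes had a summed median of 106.7 CPM in WT endometrium and 112.1 CPM in WT myometrium. In KO the medians were 111.5 CPM in endometrium and 93.8 CPM in myometrium, and the part of vessels in the Sox17 levels was not tested.

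Emx2 (chromosome 19, 59533180 to 59539847, plus strand), the homeobox gene of the early urogenital ridge, had a different order. Its medians were 50.7 CPM in WT endometrium (40.2 to 68.2), 47.3 CPM in KO endometrium (28.6 to 69.7), 51.8 CPM in WT myometrium (34.0 to 250.4) and 61.3 CPM in KO myometrium (44.9 to 78.3). In whole uterus it was at 33.9 CPM in WT (16.9 to 64.9) and 24.7 CPM in KO (16.7 to 39.5). All 6 groups overlapped with at least one other. Endometrium was lower than myometrium by 0.60 on the log2 scale over all mice (SE 0.23, edgeR adjusted p = 0.0412). The difference was not called within WT (-0.80, edgeR adjusted p = 0.173) or within KO (-0.38, adjusted p = 0.276). The call over all mice was lost under several settings. The value was -0.25 (adjusted p = 0.305) without the myometrium of WT mouse 10, left out after its level was seen, and with the mouse as a block it was -0.44 (adjusted p = 0.0886). It was -0.30 with spike-in scaling (adjusted p = 0.442) and -0.57 with the position letters as a covariate (adjusted p = 0.0561). Without the endometrium of mouse 13 or mouse 8 the adjusted p was 0.0559 and 0.0834. In fits without 1 mouse the call was lost in 9 of 14 cases, with values from -0.65 to -0.24. Whole uterus was lower than myometrium by 1.00 (SE 0.24, adjusted p = 0.00127), a call kept in 14 of 14 fits without 1 mouse and lost with spike-in scaling (-0.46, adjusted p = 0.19). The head-to-head antisense gene Emx2os begins 55 bases away and was counted separately. In the myometrium of mouse 10 it was at 12.8 CPM, within the 6.91 to 34.5 CPM of the other WT myometrium samples.

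Osr1 and Osr2, odd-skipped zinc finger genes of mesenchyme, did not separate the layers. Osr2 (chromosome 15, 35225853 to 35233059, plus strand) had medians of 119 CPM in WT endometrium (66.7 to 257), 88.5 CPM in WT myometrium (71.3 to 154), 85.8 CPM in KO endometrium (39.9 to 169.7) and 76.7 CPM in KO myometrium (38.7 to 175). The log2 difference between layers was 0.11 ± 0.21 over all mice (adjusted p = 0.748). Osr1 (chromosome 12, 9581248 to 9588305, plus strand) was scarcer, with medians of 18.8 CPM in WT endometrium (13.3 to 32.5), 31.2 CPM in WT myometrium (14.0 to 46.5), 14.3 CPM in KO endometrium (0 to 43.5) and 23.5 CPM in KO myometrium (17.4 to 28.0). Its difference was -0.39 ± 0.27 over all mice (adjusted p = 0.306), and the endometrium of KO mouse 14 had no Osr1 count.

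**Figure D2:**
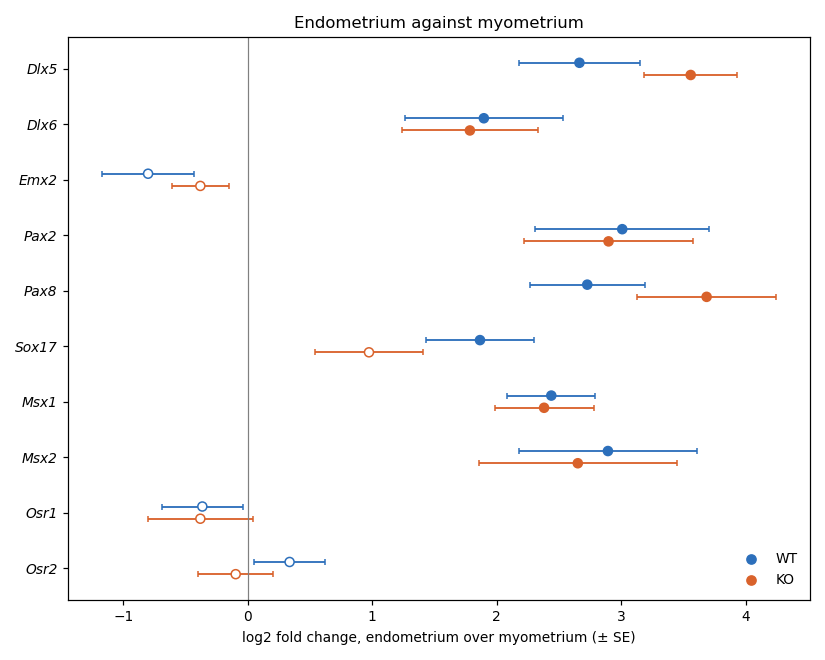
Log2 fold change of endometrium over myometrium on the x axis for each gene on the y axis, with its standard error, in WT (blue) and KO (orange), 7 mice per group; filled points have an edgeR adjusted p under 0.05. The 7 genes from Dlx5 to Msx2 other than Emx2 lie to the right of 0 in both genotypes, Sox17 in KO (0.97) is not filled, and the KO points of Emx2, Osr1 and Osr2 are left of 0 but move to 0.14, 0.13 and 0.31 with spike-in scaling.

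Whole uterus, which holds both layers, was set beside each of them. Against endometrium, 0 of the 10 genes passed the test, where 5.35% of genes were called higher and 3.54% lower, and DESeq2 called 0 as well. An unadjusted p under 0.05 was found for 3216 of the 14194 genes tested and for 4 of the 10, with uterus minus endometrium values below 0 (Emx2 -0.43 ± 0.19, Pax2 -0.97 ± 0.41, Pax8 -0.72 ± 0.30 and Msx2 -1.11 ± 0.48 on the log2 scale, edgeR adjusted p = 0.137 to 0.149). The Pax8 value ranged from -0.86 to -0.32 in fits without 1 mouse, the latter without KO mouse 2. Against myometrium, 6 were higher in whole uterus and 2 (Emx2 and Osr1) were lower, both calls that spike-in scaling ended, where 15.7% of genes were called higher and 12.1% lower.

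The 6 higher genes were Dlx5 (log2 3.17 ± 0.37), Pax8 (2.50 ± 0.33), Pax2 (2.02 ± 0.52), Msx1 (1.98 ± 0.27), Msx2 (1.75 ± 0.64) and Dlx6 (1.49 ± 0.40), with edgeR adjusted p from 4.52e-08 to 0.036. Dlx5 in whole uterus ranged from 40.1 to 217.5 CPM in WT (median 83.4) and from 72.1 to 285 CPM in KO (median 113). The log2 difference of whole uterus from endometrium was 0.05 ± 0.24, with a 95% interval of -0.41 to 0.52. Msx2 lost its call without any of mice 1, 7, 8, 9, 10 and 12, without the myometrium of mouse 10 alone (adjusted p = 0.0644), with DESeq2 (adjusted p = 0.0551) and with 1 library per mouse (adjusted p = 0.0555). Osr1 was lower in whole uterus by 0.56 (SE 0.19, adjusted p = 0.028), a call that was lost with the mouse as a block (adjusted p = 0.0619) or without mouse 1, 4, 7 or 9, and its value was 0.05 with spike-in scaling. Sox17 (0.98 ± 0.39) had an adjusted p of 0.0556, and it passed with spike-in scaling and without mouse 8 or mouse 14.

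Ordered by mean log2 CPM over the 6 groups, the 7 genes called higher in endometrium had both myometrium groups at the bottom. For Dlx5 the step down to myometrium was 3.00 on the log2 scale against a pooled SD of 0.87, and the steps among the other 4 groups were 0.001 to 0.32. For Pax8 the step was 2.12 against an SD of 0.92, and for Msx1 it was 1.44 against 0.58. For Msx2 the one step larger than its SD lay between WT and KO uterus (0.98 against 0.72). For Sox17 and Osr2, no neighbouring groups in the order were further apart than their pooled SD. Emx2 and Osr1 had both myometrium groups at the top, and the step from KO myometrium to the next group was 0.33 for Emx2 (SD 0.33) and 0.18 for Osr1 (SD 0.43).

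The question of the knockout was whether expression in a tissue differed between KO and WT. None of the 10 genes passed the test in uterus, endometrium or myometrium, where 0% of the 12959, 13004 and 12991 genes tested were called in either direction by edgeR. The unadjusted p fell under 0.05 for 731 genes in uterus, for 676 in endometrium and for 548 in myometrium, with 4, 1 and 0 of the 10 among them. DESeq2 called 7, 1 and 0 genes. It gave an adjusted p to 7 of the 10 in uterus and to all 10 in the other tissues, and called none of these. Over the 10 genes the median log2 difference (KO minus WT) stood at -0.41 for uterus, at -0.21 for endometrium and at -0.21 for myometrium, against -0.05, 0.02 and -0.03 over all genes. These comparisons were between mice, and letters in the sample labels (A to C for 5 WT and 3 KO mice, D to F for 2 WT and 4 KO) gave a further split.

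Osr2 in whole uterus had the smallest unadjusted p among the 10, at 0.000285. It ranged from 76.1 to 184 CPM in WT with a median of 99.0, and from 39.4 to 78.4 CPM in KO with a median of 58.3. Only the highest KO value, that of mouse 14, lay above the lowest WT value. The log2 difference was -1.02 ± 0.24, a ratio of KO to WT of 0.493 (n = 7 each, edgeR adjusted p = 0.387). The alternatives, fits without 1 mouse included, gave differences of -1.33 to -0.89, with adjusted p of 0.057 with DESeq2, 0.108 with spike-in scaling and up to 0.808 without mouse 6. Means were 129.9 CPM in WT and 57.5 CPM in KO for letters A to C, and 109.5 and 58.8 CPM for letters D to F. In endometrium the difference was -0.54 ± 0.32 (adjusted p = 0.959), or -0.36 without the endometrium of WT mouse 8, and in myometrium -0.09 ± 0.25.

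Msx2 in whole uterus was at 0 in 4 of 7 KO mice and 1 of 7 WT mice. It held 6 counts over the KO mice, 4 of them in mouse 9, and 36 over the WT mice, with a log2 difference of -1.95 ± 0.80 (n = 7 each, edgeR adjusted p = 0.789). Without 1 mouse that difference ranged from -3.13, without mouse 9, to -1.67. Msx1 in whole uterus ranged from 19.0 to 234 CPM in WT (median 126) and from 38.6 to 117 CPM in KO (median 61.5), a difference of -0.72 ± 0.35 (adjusted p = 0.872) that ranged from -0.92 to -0.46 without 1 mouse, the latter without WT mouse 12. Dlx6 was on the other side, at 2.06 to 9.14 CPM in WT (median 4.91) and 5.15 to 13.5 CPM in KO (median 11.0), a difference of 0.86 ± 0.38 (adjusted p = 0.836). The KO and WT ranges overlapped for all 3 genes. Library totals in uterus were 784630 to 1232992 counts in WT and 490999 to 1099526 in KO, and the summed gland list had medians of 3420 CPM in WT and 2800 CPM in KO. The summed epithelial list had medians of 1606 CPM in WT and 2266 CPM in KO, and the part of these totals and lists in the genotype values was not tested.

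Sox17 in endometrium, with the values given above for the layers, had a KO minus WT difference of -1.12 ± 0.38 (n = 7 each, edgeR adjusted p = 0.855). Means were 35.6 CPM in WT and 14.2 CPM in KO for letters A to C, and 27.4 and 12.4 CPM for letters D to F. The Pax8 difference in endometrium (0.65 ± 0.44, adjusted p = 0.978) became -0.09 ± 0.35 without mouse 2, and the Emx2 difference in myometrium (-0.45 ± 0.33, adjusted p = 1) became 0.21 ± 0.25 without mouse 10. The genotype by layer interaction called 0 of the 10 genes and 0% of 14314 genes. At an unadjusted p under 0.05 it had 658 genes and none of the 10, and DESeq2 called 0. Its estimates for the 10 ranged from -0.90 (Sox17) to 0.96 (Pax8, SE 0.81). That of Dlx5 was 0.90 ± 0.67, and -0.39 ± 0.53 without the myometrium of mouse 5.

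**Figure D3:**
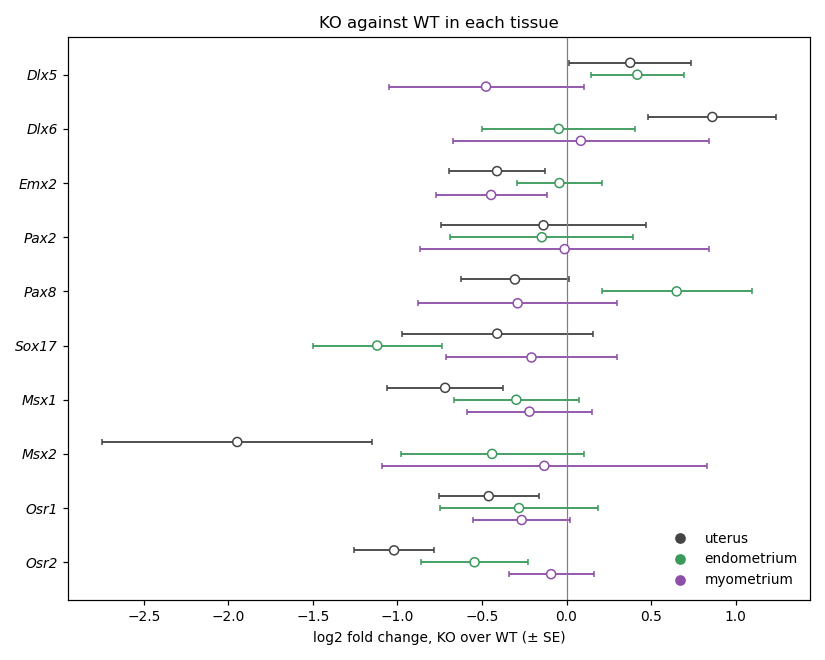
Log2 fold change of KO over WT on the x axis for each gene on the y axis, with its standard error, in uterus (grey), endometrium (green) and myometrium (purple), 7 mice per group; open points have an edgeR adjusted p of 0.05 or more. All 30 points are open, and the points farthest from 0 are Msx2 (-1.95), Osr2 (-1.02) in uterus and Sox17 (-1.12) in endometrium, while Pax8 in endometrium turns to -0.09 without mouse 2 and Emx2 in myometrium to 0.21 without mouse 10.

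Scrapings differ in how much epithelium and muscle they hold, so the 10 genes were compared with a score over the 14 endometrium samples. The score subtracted the mean log2(CPM + 1) of 4 smooth muscle genes (Acta2, Cnn1, Des and Myh11) from that of 4 epithelial genes (Cdh1, Epcam, Krt8 and Krt18). It ranged from -3.86 to 1.88 in WT endometrium (median 0.01) and from -3.16 to 3.56 in KO endometrium (median 1.95). Dlx5 rose with it (Pearson r = 0.78, permutation p = 0.00101, adjusted p = 0.0101 over 10 relations, Spearman rho = 0.75, permutation p = 0.00265). The relation was 0.66 within WT, 0.84 within KO, 0.80 within letters A to C and 0.73 within letters D to F. Without the 2 samples farthest from the median score (WT mouse 3 and KO mouse 13) r was 0.72 over 12 samples.

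The Dlx5 relation did not pass without the endometrium of mice 13 and 8 (r = 0.71, n = 12, permutation p = 0.00976, adjusted p = 0.0976), nor when the score used the 4 epithelial genes alone (r = 0.32, permutation p = 0.264, adjusted p = 0.518). For the other 9 genes r ranged from -0.43 (Osr2, rho = -0.52, permutation p = 0.13 and 0.0607) to 0.49 (Pax2, rho = 0.46, permutation p = 0.0736 and 0.0976), with adjusted p of 0.368 or more for r and 0.303 or more for rho. Without the 2 farthest samples r was -0.64 for Osr2, -0.69 for Dlx6, -0.55 for Sox17 and 0.08 for Pax2. The higher median score of KO endometrium stands beside the genotype differences in that tissue given above, and its part in them was not tested.

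**Figure D4:**
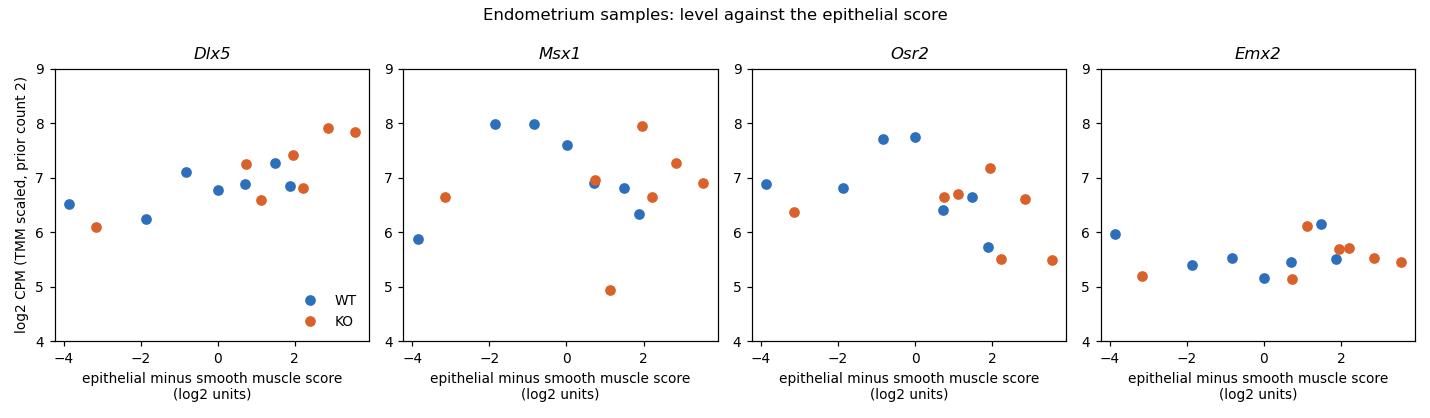
Level of 4 genes (log2 CPM, TMM scaled, prior count 2) on the y axis against the epithelial minus smooth muscle score on the x axis, in log2 units; each point is the endometrium of 1 mouse (blue WT, orange KO). The 4 genes had a count in every sample and a mean of at least 20 CPM; Dlx5 points run upward from left to right (r = 0.78), and those of Msx1 (r = 0.04), Osr2 (r = -0.43) and Emx2 (r = 0.10) do not.

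Genes with a pattern like that of a member were looked for among 4293 genes with a mean of at least 20 CPM, by Pearson r over the 42 samples after the mean of each of the 6 groups was subtracted. These are descriptions, and the points share libraries and mice. Only the 4 members with a count in every sample and a mean of at least 20 CPM were used. For Dlx5 the nearest were F11r (r = 0.74), Cldn3 (0.73) and Tmprss2, a membrane serine protease (0.72). F11r and Cldn3 encode tight junction proteins, and Cldn3 is in the epithelial marker list. For Msx1 they were Plekhs1 (0.76), Dgat2 (0.69), an enzyme of triglyceride synthesis, and Ctsd (0.68), a lysosomal protease. For Osr2 they were Mgp, an extracellular matrix protein (0.64), Slc19a1, a folate transporter (0.61), and Emcn, an endothelial sialomucin (0.58). For Emx2 they were Acbd4 (0.61), Timm44 (0.59), part of the mitochondrial import machinery, and Ccdc53 (0.52). Emx2 in the myometrium of WT mouse 10 stood apart (log2 CPM 8.01, others of that group 5.18 to 6.33). The part of that sample in the Emx2 values of r was not tested.

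Other genes of duct patterning and uterine epithelium were taken from a list of 44. Of the 38 tested between layers in all mice, 12 were higher in endometrium and 7 lower, with a median log2 difference of 0.32. Of all genes tested, 14.9% were called higher and 13.3% lower in that comparison. In WT 8 of 36 were higher and 1 lower (6.81% and 6.39% of all genes), and in KO 8 of 35 were higher and 4 lower (10.6% and 8.71%). Among genes always named, Foxa2, a factor of uterine glands, had 45 counts in endometrium and 3 in myometrium (edgeR adjusted p = 0.000138). In the endometrium of WT mouse 8, the sample highest on the oviduct and ciliated cell list, Foxa2 was at 23.2 CPM. The other WT endometrium samples were at 0 to 8.12 CPM, and the part of mouse 8 in the Foxa2 call was not tested. Hand2, a stromal target of progesterone, was lower in endometrium (log2 -0.47 ± 0.17, adjusted p = 0.0304), as was Pgr, the progesterone receptor (-0.94 ± 0.29, adjusted p = 0.0125). The stroma list had lower medians in endometrium as well, and its part in these values was not tested. Spike-in scaling moved the median layer difference of all genes from 0.03 to 0.39, and Hand2 and Pgr are not given under it.

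The homeobox genes Hoxa10 (-0.36 ± 0.16, edgeR adjusted p = 0.0799) and Hoxa11 (0.46 ± 0.28, adjusted p = 0.238), which pattern the tract along its length, did not pass. Neither did the signalling genes Wnt7a (1.53 ± 0.67), Wnt4 (0.64 ± 0.35) and Wnt5a (0.31 ± 0.32), with adjusted p of 0.0863, 0.182 and 0.514. Hoxa10 was the most abundant of these, at 105 ± 31.1 CPM in WT endometrium and 122 ± 47.6 CPM in WT myometrium (SD, n = 7). Ihh, the epithelial hedgehog signal, held 8 counts in endometrium, and Lif, the cytokine of implantation, 14. Whole uterus differed from endometrium in 5 of 38 (all lower), beside 5.35% of all genes called higher and 3.54% lower. It differed from myometrium in 14 of 37 (7 higher and 7 lower), beside 15.7% and 12.1% of all genes. Between the genotypes, 0 of the 32, 36 and 30 tested in uterus, endometrium and myometrium passed, with 2, 5 and 2 at an unadjusted p under 0.05. Of all genes, 0 passed in these tissues, and 731 of 12959, 676 of 13004 and 548 of 12991 had an unadjusted edgeR p under 0.05.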

How the data were processed

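RNA was taken from whole uterus, endometrium and myometrium of 14 mice, and 45 STRT libraries were made in a single pool with ERCC spike-ins. The authors deposited a table of raw counts for 24422 genes and 92 spike-ins, with no scaling and no gene filter. Per the labels and the study's methods, reads were sorted by barcode, merged by molecular identifier, trimmed and aligned with TopHat to mm9. The labels name HTSeq and the methods, written for embryo libraries, name Homer. The use of strand and of reads with several positions was not stated.

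Groups came from the genotype and tissue labels. KO mouse 13 had 3 endometrium libraries and WT mouse 12 had 2 myometrium libraries, which were summed to 1 sample per mouse. The chi-square per degree of freedom was 3.85 to 6.14 for repeats of mouse 13 against 8.74 to 21.6 between mice of that group, and 2.62 for mouse 12 against 4.83 to 13.8. A gene entered a fit when 5 or more of its samples reached 1 CPM. The test was the quasi-likelihood F test of edgeR 4.0.16 in R 4.3.3, with TMM scaling and p-values adjusted by Benjamini-Hochberg over all genes tested (threshold 0.05). The standard error was the absolute log2 fold change divided by the square root of F. Total counts were 264095 to 1232992 per library, which sets the precision of scarce genes. Score relations used 100000 permutations, two-sided. The fits were tested on simulated data before use.

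Alternatives were scaling to the spike-ins or by relative log expression, DESeq2 1.42.0, no filter, a filter at 10 CPM, an adjusted p under 0.1, 1 library per mouse, the label letters as a covariate, the mouse as a block, and leaving out mice or named libraries. Tissues of a mouse are paired by the animal number in the labels. Deviations of the layers from their group means correlated at 0.09 on average for the same WT mouse (0.03 to 0.12) and 0.13 for the same KO mouse (0.09 to 0.18), against -0.02 and -0.02 for different mice.

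The 10 genes, the lists and the naming rule were chosen with earlier results of these data known. All 10 were named, with a fixed set of 10 from the list of 44 other genes, and for each of the 10 with a count in all 42 samples and a mean of at least 20 CPM, the 3 genes of highest r. The genes Dlx5, Dlx6, Sox17, Osr1 and Osr2 are named without a start window. Gene positions are from GENCODE on NCBIM37 (mm9), and start windows from RefSeq on GRCm38.p6.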

Additional observations from a re-analysis of the deposited data

Results flagged for a closer look

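Of 50 sets of 7 mice examined (a gene in a group, with a median above 3 counts), 3 had a sample set apart from the others by more than the 95% critical value of Dixon's gap test, where chance gives about 5% of sets. On the log2 CPM scale (TMM, prior count 2), Emx2 in the myometrium of WT mouse 10 was at 8.01 and the other 6 mice at 5.18 to 6.33. Dlx6 in the endometrium of KO mouse 6 was at 2.07, from 1 count, and the others at 3.45 to 4.11. Pax8 in the whole uterus of KO mouse 9 was at 3.64, from 6 counts, and the others at 5.00 to 5.84. The causes were not tested.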

How the results depend on the processing

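The number of the 10 genes called changed by more than 1.5 times only with a filter at 10 CPM, which left 7 genes tested: 4 instead of 7 were called between layers in WT, and 5 instead of 8 between whole uterus and myometrium. The number that varied with the epithelial score went from 1 to 0 without mice 13 and 8, and to 0 with the 4 epithelial genes alone. Leaving out 1 mouse gave 6 to 7 genes called between layers in WT, 5 to 6 in KO, 7 to 8 in all mice, 6 to 9 between whole uterus and myometrium, and 0 in each genotype comparison and between whole uterus and endometrium. With spike-in scaling the KO layer values of Emx2, Osr1 and Osr2 were 0.14, 0.13 and 0.31, and Osr1 between whole uterus and myometrium was 0.049. Osr2 in that comparison (0.01 ± 0.20) was -0.063 with DESeq2 and with relative log expression factors, -0.024 with the filter at 10 CPM and -0.036 without the myometrium of mouse 5. Without 1 mouse it ranged from -0.16 to 0.12, and Osr2 between layers in KO from -0.41 to 0.067. The genotype difference of Pax8 in endometrium (0.65) was -0.086 without mouse 2 and up to 0.85 without another mouse, and that of Emx2 in myometrium was 0.21 without mouse 10, and the interaction of Dlx5 was -0.39 without the myometrium of mouse 5. The libraries of KO mouse 2 (endometrium) and WT mouse 10 (myometrium) were left out after their values were seen. The block by mouse, which pairs the layers, ended the calls of Emx2 between layers (-0.44, adjusted p = 0.0886) and of Osr1 between whole uterus and myometrium (-0.56, adjusted p = 0.0619) and no other of the 10, and it gave 10 instead of 0 genes of all tested in the interaction, with none of the 10. Over all genes, an adjusted p under 0.1 gave 1940 instead of 1262 between whole uterus and endometrium. Genotype calls over all genes were 7 in uterus and 1 in endometrium with DESeq2, and in myometrium 3 without a filter and 1 with spike-in scaling. Dlx6, Pax2 and Msx2 rest on few counts in myometrium, where depth limits what can be seen. Pax8 and Sox17 were at or under 3 counts in 8 of the 14 myometrium samples each.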

Other observations

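Pairs among the 10 genes were compared over the 42 samples after the group means were subtracted, as a description of points that share libraries and mice. The highest r of 45 pairs was that of Dlx5 with Pax8 (0.52), followed by Msx1 with Msx2 (0.47), Dlx5 with Msx1 (0.46) and Pax2 with Msx2 (0.45), and the neighbours Dlx5 and Dlx6 stood at 0.40. The lowest was Pax8 with Osr1 (-0.41).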
